A study of Mus musculus with 12 samples.

Results

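The 8 genes described here encode the TGF-beta ligands (Tgfb1, Tgfb2 and Tgfb3), their signalling receptors (Tgfbr1 and Tgfbr2), their co-receptors (Tgfbr3 and Eng) and the related type I receptor Acvrl1. They were chosen by gene symbol from a table of 25203 genes, and all 8 passed the filter on low values that left 12641 genes for testing. The table gives FPKM, a fragment count scaled by transcript length and by the library's total, from poly-A RNA sequencing of 12 mouse libraries. The cultures were primary stromal fibroblasts marked by low Pdgfra-driven H2B-GFP, from a study of stroma beside transformed intestinal epithelium, and the question was what TGF-beta activity does in them.

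There were 4 groups of 3 libraries. The TGFB1_KO group was Tgfbr2KO cells given exogenous TGF-beta 1, and the Vehicle_Tgfbr2KO group was Tgfbr2KO cells given vehicle. The TGFB1 group was cells without the knockout given exogenous TGF-beta 1, and the Vehicle group was such cells given vehicle. The series' description names the reporter for the treated cultures and does not say whether the Tgfbr2KO cells carry it. The labels used here give neither the deleted part of Tgfbr2, nor how it was deleted, nor the dose and duration of treatment, nor the strain and age of the mice. Whether separate animals gave the libraries within a group is likewise not stated, so the p-values below measure the spread between libraries, which may be technical.

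TGF-beta ligands are secreted in a latent form bound to their own propeptides and must be released before they can bind. The active dimer is bound by the type II receptor Tgfbr2, which phosphorylates the type I receptor Tgfbr1, which in turn phosphorylates SMAD transcription factors. Betaglycan (Tgfbr3) presents ligand to the signalling receptors and binds TGF-beta 2 particularly well, while endoglin (Eng) and ALK1 (Acvrl1) are best known from endothelial cells. In fibroblasts the pathway is known for driving matrix production and the myofibroblast state.

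The libraries could be compared only on this relative scale. Summed FPKM ran over 498670 to 569510 per library, and the absolute depth is unknown. By group the sum was 509210 to 535140 in TGFB1_KO, 498670 to 511950 in Vehicle_Tgfbr2KO, 551460 to 569510 in TGFB1 and 503530 to 518800 in Vehicle. Relative depth, read from the steps between low FPKM values, was 0.803 to 1.25 in TGFB1_KO, 0.861 to 1.02 in Vehicle_Tgfbr2KO, 0.745 to 0.799 in TGFB1 and 0.962 to 1.05 in Vehicle. The TGFB1 and Vehicle libraries thus did not overlap in either measure. Markers of the labelled cell type were abundant, the summed FPKM of 12 fibroblast markers being 5784.5 to 11020. None of the 12 was under 1 FPKM in every library. In the TGFB1 libraries 1 of them, Dpt, was at 0.0397 to 0.0743 FPKM, against 0.886 to 8.135 FPKM in Vehicle. Markers listed for other cells were also detected. The 10 smooth muscle and pericyte markers summed to 3064.6 to 6967 FPKM, most of it Acta2 and Tagln. In Vehicle libraries the mean FPKM was 1874.6 for Acta2, 1752.8 for Tagln, 156 for Myh11, 47.5 for Mcam, 0.93 for Rgs5 and 0.54 for Abcc9. Which cells made these transcripts was not tested. The 10 macrophage markers summed to 12.5 to 713 FPKM and 10 endothelial markers to 3.84 to 28.6. The 8 epithelial markers summed to 2.25 to 64.8 FPKM and 5 mesothelial markers to 0.0898 to 5.94. The highest epithelial sum was in Vehicle_Tgfbr2KO replicate 1, with Krt8 at 25.8 FPKM, which was also the library with the most Acvrl1. Of 6 enteric glia and neuron markers, 5 stayed under 1 FPKM, and their sum was 66.6 to 81.0 FPKM in TGFB1 libraries and 22.1 to 35.9 FPKM in Vehicle libraries, nearly all of it the 1 gene tested, Uchl1, which rose with TGFB1. The part of these markers in the results below was not tested. In bulk libraries like these, fewer cells of a type and less RNA per cell cannot be told apart.

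Averaged over the 12 libraries, the levels of the 8 transcripts per length ran from 9.92 FPKM for Tgfb2 to 50.3 FPKM for Tgfbr2. Acvrl1 (48.9 FPKM), Eng (46.2 FPKM) and Tgfb3 (41.9 FPKM) lay next to Tgfbr2, followed by Tgfb1 (36.6 FPKM), Tgfbr3 (23.8 FPKM) and Tgfbr1 (14.7 FPKM). The ranges of neighbouring genes in this order overlapped across the libraries. The order also differed between groups: Acvrl1 had the highest mean in TGFB1_KO (57.3 FPKM) and Vehicle_Tgfbr2KO (68.7 FPKM) and Tgfbr2 in TGFB1 (67.2 FPKM) and Vehicle (55.0 FPKM), while Tgfbr3 had the lowest mean in TGFB1 (3.51 FPKM) and Tgfb2 in the other groups. Every transcript stayed above 1 FPKM in every library, the lowest single value being 1.71 FPKM for Tgfbr3.

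**Figure D1:**
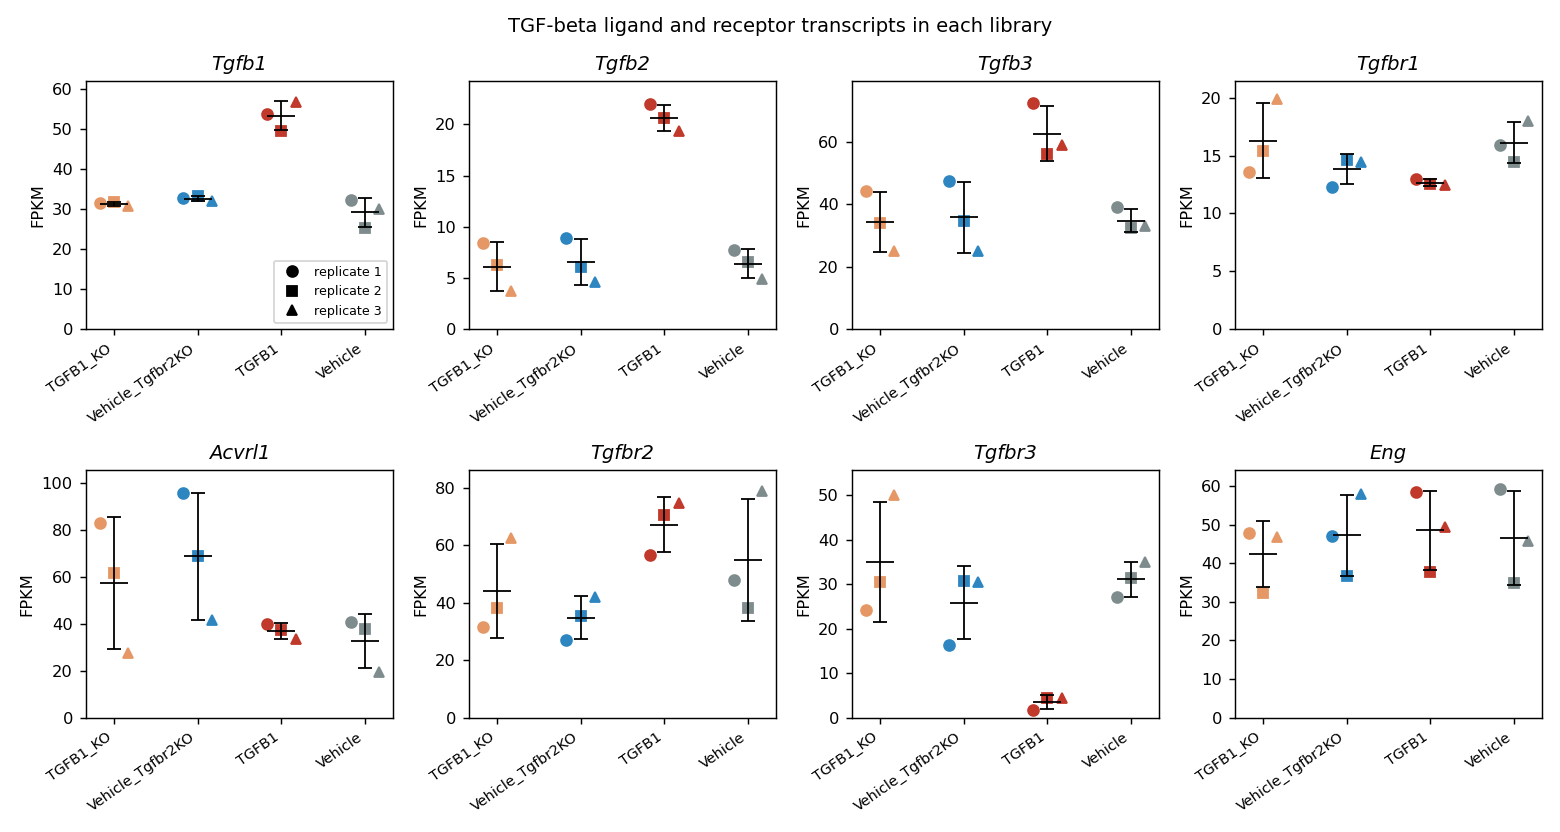
FPKM of each transcript in each library, one panel per gene; symbols are replicates, and black marks and bars are the mean and SD of the 3 libraries of a group. For Tgfb1, Tgfb2 and Tgfb3 the 3 TGFB1 libraries lie above all Vehicle libraries, for Tgfbr3 they lie below them, and in Tgfbr2KO cells these 4 genes show no such separation except a narrow one for Tgfb1.

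The targeted gene was still well detected in cells labelled Tgfbr2KO. Tgfbr2 was at 31.6, 38.0 and 62.4 FPKM in the TGFB1_KO libraries and 27.0, 35.2 and 41.9 FPKM in the Vehicle_Tgfbr2KO libraries. It was at 56.5, 70.6 and 74.6 FPKM in the TGFB1 libraries and 48.0, 38.2 and 78.8 FPKM in the Vehicle libraries. The knockout libraries were lower than the library of the same treatment and number in all 6 such comparisons, but the ranges of the groups overlapped. Ratios at the same number were 0.562, 0.922 and 0.532 for Vehicle_Tgfbr2KO over Vehicle, and 0.560, 0.538 and 0.837 for TGFB1_KO over TGFB1. By limma, the log2 difference was -0.61 ± 0.30 (SE) between Vehicle_Tgfbr2KO and Vehicle, with an adjusted p of 0.260. It was -0.65 ± 0.30 between TGFB1_KO and TGFB1, with an adjusted p of 0.119. A replicate block over all 4 groups gave 0.0450 and 0.0132, though the libraries of number 2 did not correlate between genotypes. A level summed over the whole transcript does not check a deletion of part of it, and the groups are therefore called by their labels throughout.

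All 3 ligand transcripts rose with TGFB1 in cells without the knockout. Tgfb1, whose product is the isoform that was added, averaged 53.3 ± 3.57 FPKM in TGFB1 libraries and 29.1 ± 3.67 FPKM in Vehicle libraries (SD, n = 3 each). Tgfb2 averaged 20.6 ± 1.30 FPKM with TGFB1 and 6.39 ± 1.41 FPKM with Vehicle. Tgfb3 averaged 62.6 ± 8.80 FPKM with TGFB1 and 34.8 ± 3.73 FPKM with Vehicle.

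The 3 transcripts were high in every TGFB1 library. Tgfb2 was at 22.0, 20.6 and 19.4 FPKM in the TGFB1 libraries and at 7.73, 6.50 and 4.93 FPKM in the Vehicle libraries. Tgfb3 was at 72.6, 56.1 and 59.1 FPKM in the TGFB1 libraries and at 39.1, 32.3 and 33.0 FPKM in the Vehicle libraries. Tgfb1 was at 53.7, 49.6 and 56.7 FPKM in the TGFB1 libraries and at 32.3, 25.1 and 30.0 FPKM in the Vehicle libraries. No TGFB1 library overlapped a Vehicle library for any of them, as for 26.1% of all genes tested in that direction. On the log2(FPKM + 1) scale the changes by limma were 0.86 ± 0.083 (SE) for Tgfb1 with an adjusted p of 5.31e-05, and 1.57 ± 0.26 for Tgfb2 with an adjusted p of 0.00153. For Tgfb3 the change was 0.83 ± 0.24 with an adjusted p of 0.0229.

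The ratio at the same replicate number was nearly constant for Tgfb3, at 1.86, 1.74 and 1.79, and ranged over 1.66 to 1.97 for Tgfb1 and 2.84 to 3.93 for Tgfb2. The call for Tgfb3 was lost without TGFB1 replicate 1 (adjusted p = 0.0848), TGFB1 replicate 3 (0.0506), Vehicle replicate 2 (0.0691), Vehicle replicate 3 (0.0612), or replicate 2 of all 4 groups (0.193), and with a single library left out of any group it otherwise held. Over the 10 alternatives that keep all libraries its adjusted p ran from 6.61e-05, with a block on the replicate number within genotype, to 0.0389. Without replicate 2 of all 4 groups the adjusted p for Tgfb2 was 0.0642.

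With TGFB1, summed ligand transcript was 137 ± 11.1 FPKM, against 70.3 ± 7.88 FPKM with Vehicle, and Tgfb2 made up more of it. Tgfb2 made up 14.8%, 16.3% and 14.3% of summed ligand FPKM in the TGFB1 libraries and 9.78%, 10.2% and 7.26% in the Vehicle libraries. The shares did not overlap, and the difference of 6.08 percentage points gave p = 0.10 in a two-sided exact permutation test, the smallest p that 3 against 3 libraries allow. In knockout cells Tgfb2 made up 8.29 ± 1.93% with TGFB1 and 8.58 ± 1.31% with vehicle (exact permutation p = 0.90), and the Vehicle_Tgfbr2KO share also overlapped the 9.07 ± 1.58% of Vehicle (exact permutation p = 0.90). With adjustment over the 6 share comparisons made, the smallest p was 0.30. Tgfb3 remained the largest share by mean in every group, at 47.3% in TGFB1_KO, 47.0% in Vehicle_Tgfbr2KO, 45.7% in TGFB1 and 49.5% in Vehicle.

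**Figure D2:**
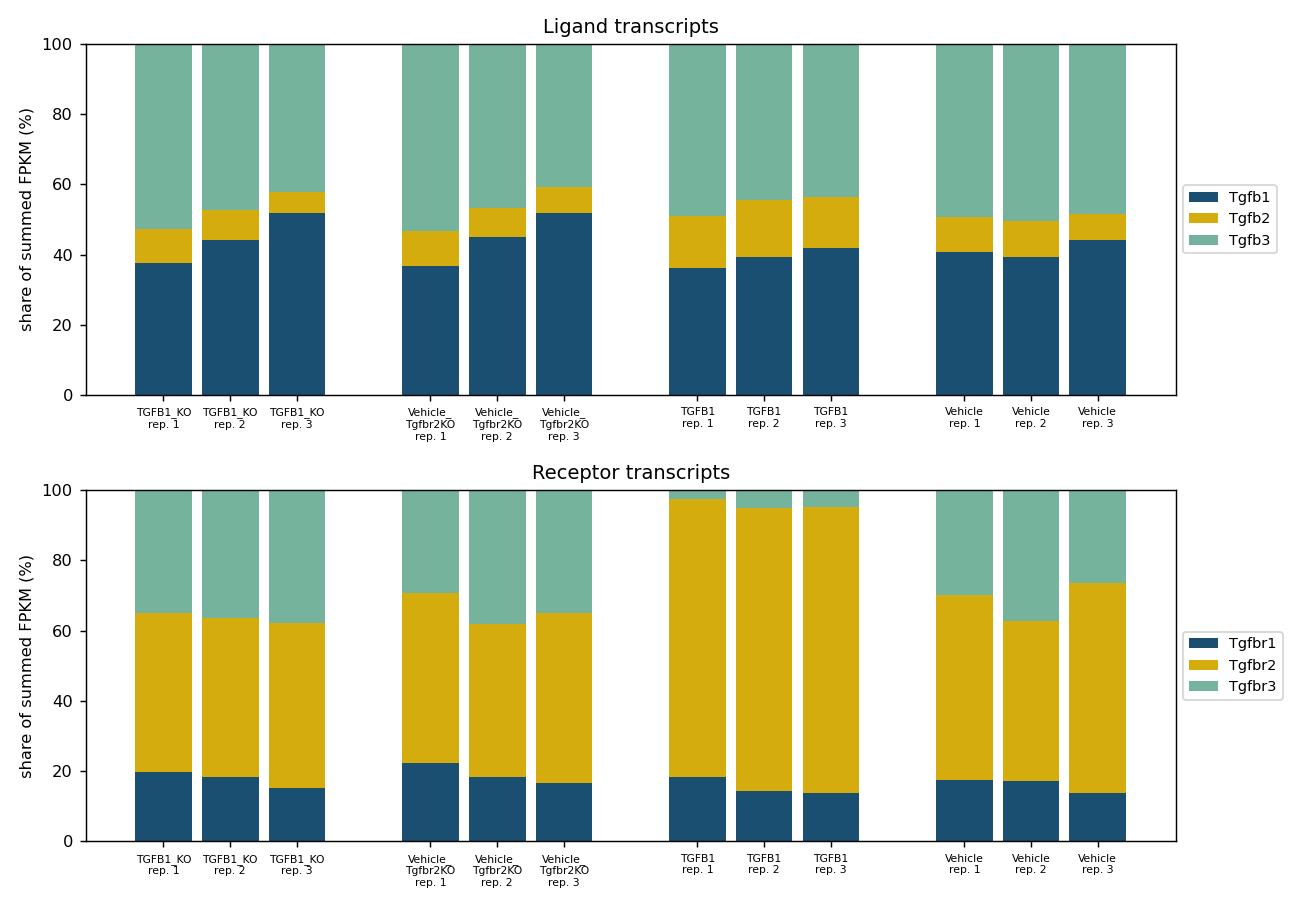
Stacked bars give the percent of summed FPKM from each ligand (upper panel) and from each of the receptors Tgfbr1, Tgfbr2 and Tgfbr3 (lower panel) in every library. Tgfb2 takes 14.3% to 16.3% of ligand transcript and Tgfbr3 2.40% to 4.94% of receptor transcript in TGFB1 libraries, against 7.26% to 10.2% and 26.5% to 37.3% in Vehicle libraries.

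The promoters of the ligand that rose most and of the ligand whose product was added differ in sequence type. The 250 bases before each start site are shown for these ligands, from RefSeq on GRCm38.p6, in the direction of transcription, with motif matches in capitals.
Tgfb2, chr1:186705990-186706239, minus strand: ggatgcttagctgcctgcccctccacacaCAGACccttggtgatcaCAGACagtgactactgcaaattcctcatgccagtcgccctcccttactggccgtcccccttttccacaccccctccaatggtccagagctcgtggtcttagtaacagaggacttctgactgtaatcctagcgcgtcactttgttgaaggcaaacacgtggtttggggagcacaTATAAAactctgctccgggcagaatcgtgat
Tgfb1, chr7:25686752-25687001, plus strand: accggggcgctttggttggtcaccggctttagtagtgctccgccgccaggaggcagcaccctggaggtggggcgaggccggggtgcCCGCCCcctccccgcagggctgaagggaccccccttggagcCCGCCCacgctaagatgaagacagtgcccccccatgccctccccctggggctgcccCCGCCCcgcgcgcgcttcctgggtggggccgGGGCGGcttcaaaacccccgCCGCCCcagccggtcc
In the Tgfb2 window the capitals mark 2 SMAD boxes (CAGAC or its reverse complement GTCTG) and 1 TATA box (TATAAA or TTTATA), which begins at position -31 from the start site. In the Tgfb1 window they mark 5 GC boxes (GGGCGG or CCGCCC) and no SMAD box, in sequence of 75.2% G and C, against 53.6% in the Tgfb2 window and a median of 52.4% over all promoters. Among 32851 promoter windows of the same length, 42.2% held a SMAD box match, 12.4% a TATA box match and 32.7% a GC box match, on either strand, so each match is common. Neither window held the AP-1 element TGAGTCA or TGACTCA (4.46% of promoters) or the cAMP response element TGACGTCA (1.55%), and no 2 of these motifs overlap in letters in either window. Among the other members the table holds windows for Tgfbr1, Tgfbr2 and Eng, so that 5 of the 8 members were matched. The Eng window also held 2 SMAD box matches, the Tgfbr2 window 1 and 1 of the 2 Tgfbr1 windows 1. None of these genes passed the test with TGFB1 in the fit without a replicate block. The matches describe letters only.

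Of the type I receptors, neither passed the test with TGFB1 in the fit without a replicate block. Tgfbr1, the kinase that phosphorylates SMAD2 and SMAD3, was at 13.0, 12.6 and 12.5 FPKM in the TGFB1 libraries and 15.9, 14.5 and 18.0 FPKM in the Vehicle libraries. Every TGFB1 library was below every Vehicle library, as for 21.8% of all genes tested in that direction. The log2 difference was -0.32 ± 0.13 (SE), with an interval of -0.60 to -0.04 and an adjusted p of 0.0780 by limma. Blocking on the replicate number within genotype gave 0.0301, and over the 10 alternatives that keep all libraries it ran from 0.0301 to 0.117. Acvrl1 was at 39.9, 37.3 and 33.2 FPKM in the TGFB1 libraries and 40.7, 37.7 and 19.6 FPKM in the Vehicle libraries, which overlapped, with a log2 difference of 0.23 ± 0.42 (95% interval -0.70 to 1.16).

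The type II receptor did not pass the test either. Tgfbr2 differed between TGFB1 and Vehicle by 0.34 ± 0.30 on the log2 scale (adjusted p = 0.420), and its same-number ratios were 1.18, 1.85 and 0.946. The ratio was below 1 only at number 3, where the Vehicle library was the highest of its group.

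The co-receptors differed in their response. Tgfbr3 was at 1.71, 4.32 and 4.51 FPKM in the TGFB1 libraries and 27.1, 31.3 and 34.9 FPKM in the Vehicle libraries, with no overlap. It fell by 2.89 ± 0.34 (SE) on the log2(FPKM + 1) scale, with an adjusted p of 0.000189 by limma, and with a pseudocount of 0.1 FPKM the fall was 3.22. Eng was at 58.4, 37.8 and 49.4 FPKM in the TGFB1 libraries and 59.3, 34.9 and 45.7 FPKM in the Vehicle libraries, where both groups had their lowest value in replicate 2. The Eng difference was 0.07 ± 0.24 with a 95% interval of -0.47 to 0.60 and an adjusted p of 0.865.

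Set beside Tgfbr1 and Tgfbr2, betaglycan transcript was a small share with TGFB1. Tgfbr3 made up 2.40%, 4.94% and 4.93% of the FPKM summed over Tgfbr1, Tgfbr2 and Tgfbr3 in the TGFB1 libraries, and 29.7%, 37.3% and 26.5% in the Vehicle libraries. The difference of -27.1 percentage points had an exact permutation p of 0.10, again the smallest possible. In knockout cells the share was 36.4 ± 1.48% with TGFB1 and 34.1 ± 4.44% with vehicle (exact permutation p = 0.70), and Vehicle_Tgfbr2KO set against the 31.2 ± 5.52% of Vehicle gave an exact permutation p of 0.50. Tgfbr2 made up 80.5 ± 1.09% of this receptor sum in TGFB1 libraries and 52.7 ± 7.16% in Vehicle libraries. Its own level, 67.2 against 55.0 FPKM, did not pass the test (adjusted p = 0.420 by limma). Eng and Acvrl1 are not part of this sum.

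In all, 3 of the 8 members rose and 1 fell with TGFB1 in cells without the knockout, by the fit without a replicate block. There 17.3% of all genes tested rose and 14.6% fell (31.9% in either direction). The median log2 difference of the members was 0.29, against 0.02 over all genes.

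**Figure D3:**
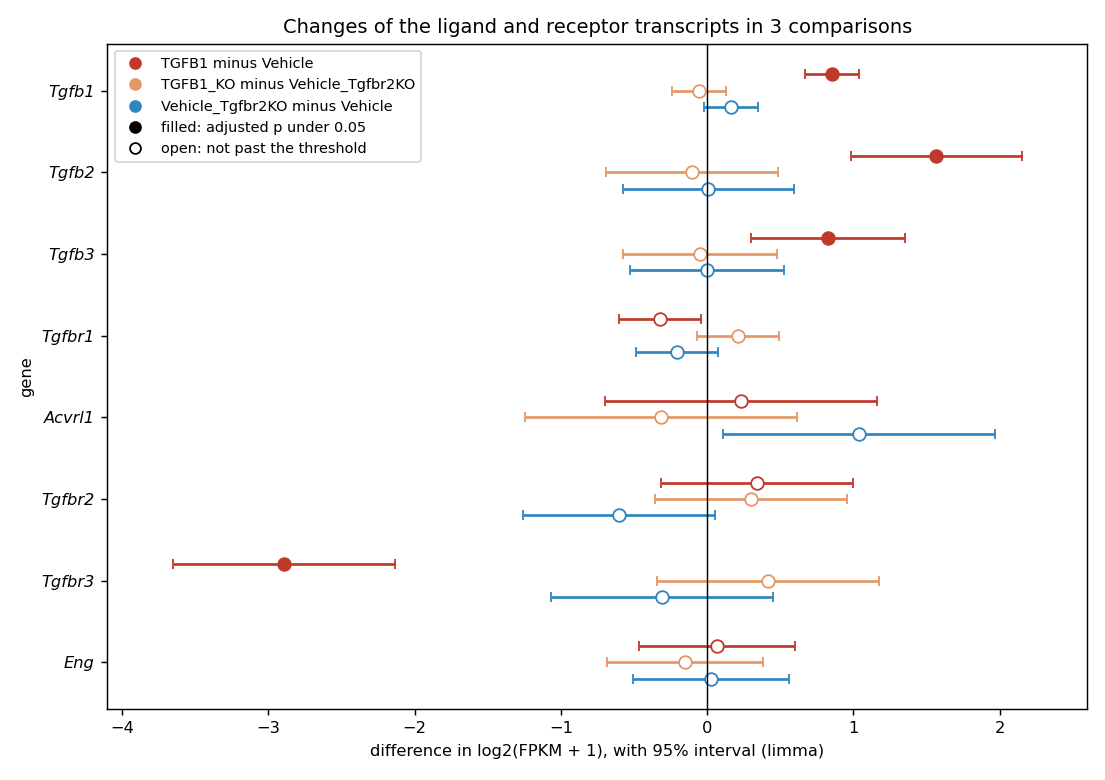
Differences in log2(FPKM + 1) with 95% intervals from limma for each transcript in 3 comparisons; filled points passed an adjusted p of 0.05 and open points did not. The 4 filled points are Tgfb1, Tgfb2, Tgfb3 and Tgfbr3 in TGFB1 minus Vehicle, and the Acvrl1 point at 1.04 in Vehicle_Tgfbr2KO minus Vehicle is open.

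The knockout cells were there to show effects of TGFB1 outside the canonical route. In Tgfbr2KO cells none of the 8 members passed the test with TGFB1, and the background was 0% of 12641 genes by limma. At an unadjusted p under 0.05 the same test held 748 genes (5.92%), none of them a member, and with a pseudocount of 0.1 FPKM 1 gene passed after adjustment. Tgfb1 was at 31.5, 31.7 and 30.6 FPKM in the TGFB1_KO libraries and 32.8, 33.1 and 31.9 FPKM in the Vehicle_Tgfbr2KO libraries. These values were close to each other within and between the groups, and the TGFB1_KO ones were all lower, as for 5.23% of genes. The same-number ratio was 0.960, 0.956 and 0.961, and the log2 difference was -0.06, with a 95% interval of -0.24 to 0.13.

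Tgfb2 was at 8.37, 6.28 and 3.66 FPKM in the TGFB1_KO libraries and 8.94, 6.10 and 4.59 FPKM in the Vehicle_Tgfbr2KO libraries. Tgfb3 was at 44.2, 33.9 and 24.9 FPKM in the TGFB1_KO libraries and 47.6, 34.5 and 25.1 FPKM in the Vehicle_Tgfbr2KO libraries. Both ligands overlapped between these groups and were highest at number 1 and lowest at number 3 in each. The log2 difference of Tgfb2 was -0.10 (95% interval -0.69 to 0.48), and that of Tgfb3 was -0.05 (-0.57 to 0.48).

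Tgfbr3 was at 24.2, 30.5 and 50.1 FPKM in the TGFB1_KO libraries and 16.3, 30.6 and 30.4 FPKM in the Vehicle_Tgfbr2KO libraries, which overlapped. Its log2 difference was 0.41 ± 0.34, and the interval of -0.35 to 1.17 does not reach the fall seen in cells without the knockout. Tgfbr1 was at 13.6, 15.4 and 19.9 FPKM in the TGFB1_KO libraries and 12.3, 14.7 and 14.5 FPKM in the Vehicle_Tgfbr2KO libraries. It was higher with TGFB1 at each of the 3 numbers, by 1.10, 1.05 and 1.38 times, while the groups overlapped (adjusted p = 0.738 by limma).

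The response itself was then compared between genotypes, as the change in knockout cells minus the change in cells without the knockout. Of the 8 members, 3 passed this interaction test by limma, against 17.6% of all genes. The difference in response was -0.91 ± 0.12 for Tgfb1 (adjusted p = 0.000789), -1.67 ± 0.37 for Tgfb2 (0.0129) and 3.31 ± 0.48 for Tgfbr3 (0.00157). For Tgfb3 it was -0.87 ± 0.33 with an adjusted p of 0.0995, and for Tgfbr1 0.53 ± 0.18 with an adjusted p of 0.0656. With a block on the replicate number within genotype both of these passed, at 0.000483 for Tgfb3 and 0.0241 for Tgfbr1, and over the alternatives that keep all libraries they ran up to 0.150 and 0.0998. Without replicate 2 of all 4 groups the calls for Tgfb2 (0.169) and Tgfbr3 (0.0601) were lost.

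Between the knockout and the intact cells without added ligand, none of the 8 members passed the test, against 1.24% of all genes (157 genes by limma). At an unadjusted p under 0.05 the same test held 21.9% of genes, and Acvrl1 was the 1 member among them. The count of 157 moved with single libraries, to 0 without Vehicle replicate 3 or Vehicle_Tgfbr2KO replicate 1, to 748 without TGFB1_KO replicate 3, and to 4 to 86 without any other library except TGFB1_KO replicate 1 (122). Acvrl1, the type I receptor that in endothelium acts with Eng, had the largest difference among the members. It was at 95.7, 68.6 and 41.6 FPKM in the Vehicle_Tgfbr2KO libraries and 40.7, 37.7 and 19.6 FPKM in the Vehicle libraries. Each Vehicle_Tgfbr2KO library was above each Vehicle library, as for 14.8% of genes in that direction, and the same-number ratios were 2.35, 1.82 and 2.12. The log2 difference was 1.04 ± 0.42 (SE, 95% interval 0.11 to 1.97), with an adjusted p of 0.189 by limma. A replicate block over all 4 groups gave 0.0185, though the libraries of number 2 did not correlate between genotypes. With added ligand Acvrl1 was at 82.9, 61.7 and 27.4 FPKM in the TGFB1_KO libraries, which overlapped the TGFB1 libraries, with a log2 difference of 0.49 ± 0.42 (adjusted p = 0.407).

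With added ligand, 4 of the 8 members differed between TGFB1_KO and TGFB1, against 33.9% of all genes (18.3% lower and 15.6% higher). Tgfb1 (log2 difference -0.75), Tgfb2 (-1.66) and Tgfb3 (-0.88) were lower in TGFB1_KO, with adjusted p of 8.30e-05, 0.000839 and 0.0160 by limma. Tgfbr3 was higher in TGFB1_KO by 3.00 on the log2 scale, with an adjusted p of 9.68e-05. This comparison shares its TGFB1 libraries with the one of TGFB1 and Vehicle, and the comparison of Vehicle_Tgfbr2KO and Vehicle shares the Vehicle libraries with it, so these are not independent of one another. The Tgfb3 call was lost without TGFB1 replicate 1 (0.0621), TGFB1_KO replicate 3 (0.05001) or replicate 2 of all 4 groups (0.138).

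Levels of markers listed for other cells were set beside the members. Macrophages make Tgfb1, and the macrophage marker sum was 283, 12.5 and 375 FPKM in the TGFB1 libraries and 481, 32.5 and 713 FPKM in the Vehicle libraries. It was lowest at number 2, and there the TGFB1 library held 1.97 times the Tgfb1 of the Vehicle library, the highest of the 3 ratios. In knockout cells the macrophage sum was 111, 278 and 194 FPKM in the TGFB1_KO libraries and 134, 376 and 294 FPKM in the Vehicle_Tgfbr2KO libraries, while Tgfb1 stayed within 30.6 to 33.1 FPKM. The macrophage sum was lower with TGFB1 at each number in both genotypes. None of the 9 macrophage markers tested passed between TGFB1 and Vehicle, beside 31.9% of all genes, or in knockout cells, beside 0%. Within groups, deviations of the macrophage sum and of Tgfb1 from their group means correlated at r = 0.82 over the 12 libraries, the highest r of Tgfb1 with any marker sum, and the part of these cells in the Tgfb1 level was not tested.

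Endothelial cells are the best-known source of Eng and Acvrl1. At number 2 the endothelial marker sum was 3.84 FPKM in the TGFB1 library and 5.10 FPKM in the Vehicle library, its lowest values. Eng was at 37.8 FPKM in that TGFB1 library and 34.9 FPKM in that Vehicle library, and Acvrl1 was at 37.3 FPKM in the TGFB1 library and 37.7 FPKM in the Vehicle library. The endothelial cadherin Cdh5 was at 0.0305 FPKM in the TGFB1 library and 0.0545 FPKM in the Vehicle library, and Tie1 and Cldn5 were at 0 in both. Most of the sum was Egfl7, at 2.62 FPKM in the TGFB1 library and 3.65 FPKM in the Vehicle library, followed by Esam, at 0.61 FPKM in the TGFB1 library and 0.79 FPKM in the Vehicle library. The part of endothelial cells in the Eng and Acvrl1 levels was not tested. Smooth muscle and pericyte markers moved with treatment, with 4 of 9 tested higher and 1 lower in TGFB1 than in Vehicle (17.3% and 14.6% of all genes), and their sum was 6066.6 to 6967 FPKM in TGFB1 libraries and 3792.7 to 4668.6 FPKM in Vehicle libraries. Among the fibroblast markers 1 of 12 rose and 2 fell. Pdgfra, which drives the reporter of these cultures, was at 15.2 ± 4.01 FPKM in TGFB1 libraries and 142 ± 20.7 FPKM in Vehicle libraries. It was at 115 ± 69.9 FPKM in TGFB1_KO and 74.5 ± 25.8 FPKM in Vehicle_Tgfbr2KO. The part of either marker list in the ligand and Tgfbr3 changes was not tested.

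Within groups the members varied together in a fixed pattern. After subtracting each group's mean log2 level, Acvrl1 followed Tgfb2 across the 12 libraries (Pearson r = 0.98, Spearman rho = 0.97) and Tgfb3 (r = 0.85, rho = 0.78), and ran opposite to Tgfbr2 (r = -0.93, rho = -0.91), Tgfbr1 (r = -0.88, rho = -0.85) and Tgfbr3 (r = -0.74, rho = -0.77). Without the 2 libraries farthest from the median of Acvrl1, TGFB1_KO replicate 3 and Vehicle replicate 3, r was 0.97 with Tgfb2 and -0.86 with Tgfbr2. Tgfb1 (r = 0.04) and Eng (r = -0.17) did not share the pattern. Such agreement was common in these libraries, as 11.2% of the other 12640 genes tested had an r of at least 0.9 in size with Acvrl1 and 39.8% had one of at least 0.7. The marker sums moved along with it, at r = 0.85 between Acvrl1 and the smooth muscle and pericyte sum and r = 0.89 between Tgfbr2 and the fibroblast sum, and their part in the pattern was not tested. The 12 deviations are not independent, since they share group means and numbers, and the values are a description.

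**Figure D4:**
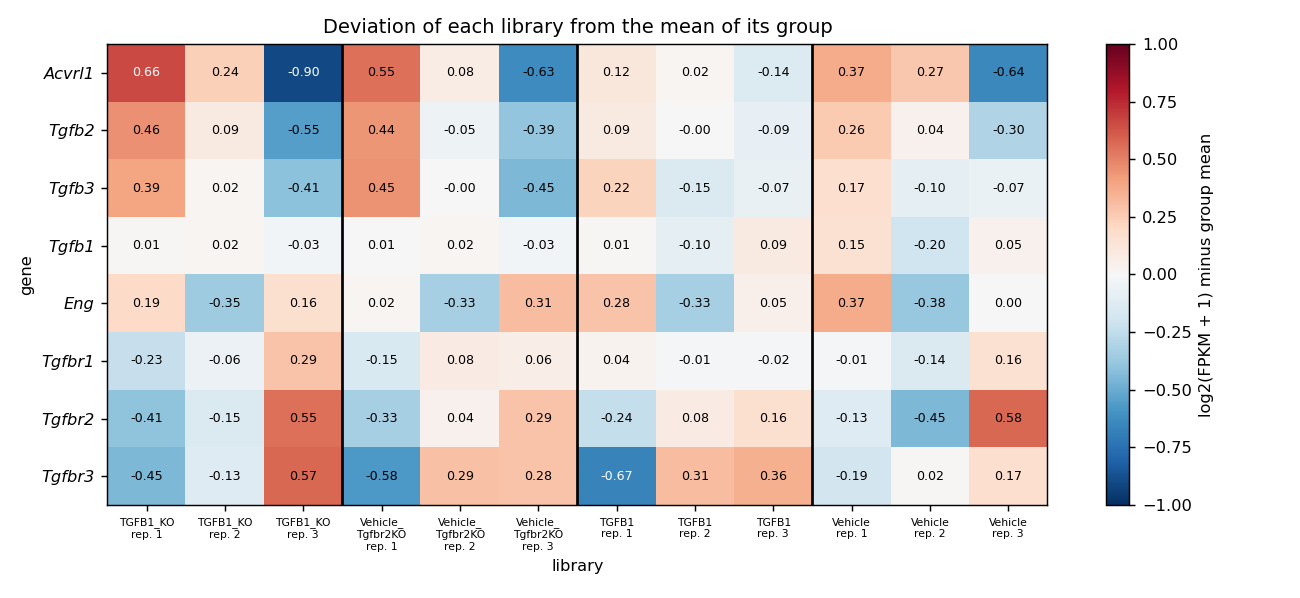
Each cell gives a library's log2(FPKM + 1) minus the mean of its group, for 8 transcripts (rows) in 12 libraries (columns). Acvrl1, Tgfb2 and Tgfb3 are above their group mean in every replicate 1 library and below it in every replicate 3 library, where Tgfbr2 is above it.

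The genes most like each member across all 12 libraries were chosen by Pearson r of log2(FPKM + 1). For Tgfbr3 they were Osmr (r = 0.99), C3 (0.99) and Cebpd (0.99), and for Tgfb2 they were Wsb2 (0.99), Chpf2 (0.99) and Chst12 (0.99). Tgfb1 was most like Capg (0.98), Rnf149 (0.98) and Ghitm (0.98), and Tgfb3 was most like Tyw1 (0.98), Spsb3 (0.98) and Chst12 (0.97). Chst12 was thus among the closest 3 genes of both Tgfb2 and Tgfb3. Acvrl1 was most like Maff (0.99), Tgfbr2 like Mxi1 (0.98) and Tgfbr1 like Rdh10 (0.97), while the closest gene to Eng, Gng10, reached only 0.85. These values mix the differences between groups with those within them.

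Beyond the ligands and receptors, the listed genes that hold TGF-beta latent or release it rose more often than they fell with TGFB1. This list and those below were chosen with earlier results of these data known, so their counts only describe the genes listed. Of 19 tested genes of latency and activation, 12 rose and 1 fell, with a median log2 difference of 0.58, beside 17.3% rising, 14.6% falling and a median of 0.02 over all genes. Mmp9, a matrix protease able to release latent TGF-beta, rose to 260 ± 80.5 FPKM in TGFB1 libraries, against 27.7 ± 14.8 FPKM in Vehicle libraries. Itgb3, the beta chain of an integrin that binds the latent complex, was at 65.4 ± 2.66 FPKM with TGFB1 and 17.4 ± 3.24 FPKM with Vehicle. The increases were 3.32 ± 0.52 and 1.86 ± 0.14 on the log2 scale, with adjusted p of 0.00103 and 1.37e-05 by limma. Ltbp4 (log2 difference 1.11) and Fbn1 (0.94), which encode matrix proteins that anchor the latent complex, rose as well. Of the same list, Ltbp1 (-0.05), Ltbp3 (0.08), Lrrc32 (-0.51) and Nrros (-0.53) did not pass. Their adjusted p were 0.901, 0.598, 0.175 and 0.321 by limma. The 1 gene that fell was Cd109 (-0.62).

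The SMADs and their modulators moved in both directions, 7 of 22 tested rising and 5 falling, with a median of 0.12. Over all genes 17.3% rose and 14.6% fell, with a median of 0.02. Among inhibitors of the pathway, Pmepa1 (1.65), Ldlrad4 (1.17) and Skil (1.15) rose. Skil, which represses SMAD targets, was at 29.0 ± 1.30 FPKM with TGFB1 and 12.6 ± 0.68 FPKM with Vehicle. Dab2, an adaptor in receptor endocytosis and signalling, fell by 1.86. It was at 3.09 ± 0.86 FPKM with TGFB1 and 13.9 ± 3.80 FPKM with Vehicle. The inhibitors Smad6 (-0.71) and Bambi (-0.37) fell as well, and Smad7 (0.80, adjusted p = 0.0648 by limma) did not pass.

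Among 6 tested receptors of the wider superfamily, Acvr1, a type I receptor for BMPs, rose by 0.79, and Acvr1b (-0.57) and Bmpr1b (-0.27) fell. Among 9 tested ligands, 2 rose and 4 fell, with a median of -0.86. Beside both lists, 17.3% of all genes rose and 14.6% fell, with a median of 0.02. Inhba, which encodes the subunit of activin A, was at 182 ± 14.2 FPKM with TGFB1 and 43.4 ± 10.7 FPKM with Vehicle, and Gdf6 rose by 1.60. Bmp4, a BMP ligand of the intestinal stroma, was at 1.24 ± 0.34 FPKM with TGFB1 and 15.5 ± 4.26 FPKM with Vehicle, a fall of 2.86 with an adjusted p of 1.99e-05, and Gdf15 fell by 0.92. Taking the 4 lists as one, 22 of 56 genes rose and 12 fell, beside the 17.3% and 14.6% of all genes.

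In knockout cells none of these 56 genes passed the test with TGFB1, where 0% of all genes tested did. The response differed between genotypes for 22 of the 56, beside 17.6% of all genes. Pmepa1 (-1.67), Itgb3 (-1.67), Inhba (-2.43) and Bmp4 (3.19) were among the 22, while Ltbp4 (-0.83, adjusted p = 0.0671) and Fbn1 (-0.41, adjusted p = 0.489) were not. Without added ligand, 2 of the 56 were lower in Vehicle_Tgfbr2KO than in Vehicle, beside 0.72% of all genes. Ltbp4 was at 7.52 ± 0.93 FPKM in Vehicle_Tgfbr2KO and 16.7 ± 4.00 FPKM in Vehicle (adjusted p = 0.0433 by limma), and Itgb5, another integrin beta chain, was at 81.6 ± 1.4 FPKM in Vehicle_Tgfbr2KO and 110.8 ± 11.8 FPKM in Vehicle (adjusted p = 0.0304). Both calls were lost where no gene passed, which was without Vehicle replicate 3, without Vehicle_Tgfbr2KO replicate 1, without replicate 1 or 2 of all 4 groups, or with the libraries of those groups alone. Whether either call held in the other settings was not followed. Only 4 genes passed without Vehicle replicate 1, and 7 without Vehicle_Tgfbr2KO replicate 3.

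**Figure D5:**
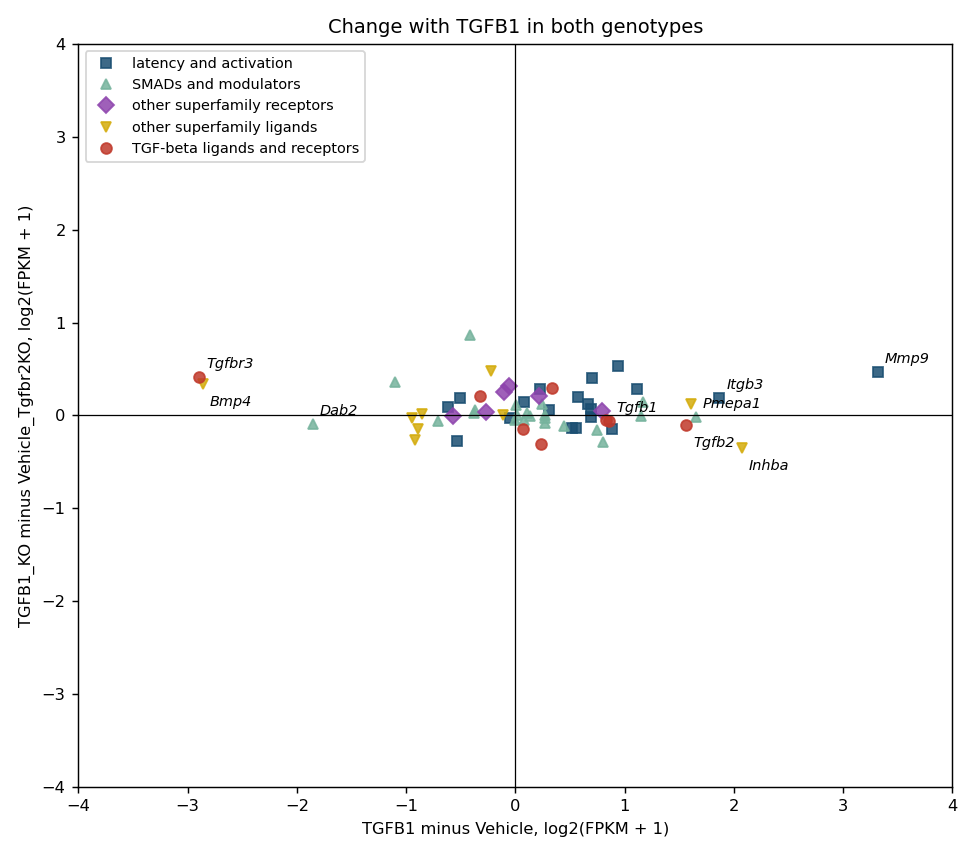
Each point is a gene, with its change in log2(FPKM + 1) in TGFB1 minus Vehicle on the horizontal axis and in TGFB1_KO minus Vehicle_Tgfbr2KO on the vertical axis, coloured by list. Points spread from -2.89 (Tgfbr3) to 3.32 (Mmp9) horizontally and stay within 1 of 0 vertically.

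Exons of Tgfb2, Tgfb3, Eng and Acvrl1 overlap those of genes on the opposite strand in GENCODE M21 (Fpgs for Eng), and those of Tgfbr3 an unnamed gene on the same strand. The strand setting of the quantification is not given in the sources used here, so the levels of these 5 transcripts may hold reads of their neighbours.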

How the data were processed

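The deposited table held FPKM values that the authors made, 1 column per library; the submitters' processing notes name kallisto 0.46.1, DESeq2 1.40.1 and the build mm9, with no role for each. Columns were matched to libraries by the treatment, genotype and number in the sample descriptions. A gene was tested if 3 or more of the 12 libraries reached 1 FPKM (12641 of 25203 genes), and log2(FPKM + 1) was fitted with limma 3.58.1 in R 4.3.3, as 4 group means over all libraries with a variance trend. P-values were adjusted by Benjamini-Hochberg over all genes tested, with a threshold of 0.05. A pseudocount of 1 understates changes of low genes. The fit was checked on simulated data. Shares were compared by two-sided exact permutation tests.

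Replicate numbers come from the titles, and the descriptions give replicates 1, 2 and 3 of all 4 groups the shared numbers 31, 121 and 123, without saying what these mark. Deviations from group means correlated at the same number between TGFB1 and Vehicle (0.391, 0.445 and 0.408) and between TGFB1_KO and Vehicle_Tgfbr2KO (0.588, 0.227 and 0.529), so the numbers pair libraries within genotype. The reported fit leaves this pairing out. The member calls that a block within genotype changed are given with the results. Between genotypes the correlations at numbers 1, 2 and 3 were 0.336, -0.0867 and 0.412 without added ligand. They were 0.337, 0.00945 and 0.276 with it, so number 2 showed no pairing there.

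The members and gene lists were chosen with earlier results of these data known. In each list the genes named first are those past the threshold with the largest changes, up to 4. They were drawn from genes averaging at least 5 FPKM in a compared group. Further genes are named to show falls or changes that did not pass. The 3 genes most like each member were ranked by r. The alternatives tried were other pseudocounts, filters, scalings, variance settings and sets of groups, a replicate block, and leaving out libraries.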

Additional observations from a re-analysis of the deposited data

Results flagged for a closer look

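The response to TGFB1 differed between genotypes for 3 of the 8 members, beside 17.6% of all genes. The interaction test of limma was used, with adjustment over all genes and no replicate block. The change in knockout cells minus the change in cells without the knockout was -0.91 on the log2(FPKM + 1) scale for Tgfb1 (adjusted p = 0.000789), and the TGFB1_KO library was lower than its Vehicle_Tgfbr2KO partner at 3 of 3 numbers, while the TGFB1 library was higher than its Vehicle partner at 3 of 3. For Tgfb2 the difference was -1.67 (adjusted p = 0.0129), with TGFB1_KO lower at 2 of 3 numbers and TGFB1 higher at 3 of 3. For Tgfbr3 it was 3.31 (adjusted p = 0.00157), with TGFB1_KO higher at 2 of 3 numbers and TGFB1 lower at 3 of 3. The calls for Tgfb2 (0.169) and Tgfbr3 (0.0601) were lost without replicate 2 of all 4 groups. With a replicate block within genotype Tgfb3 (0.000483) and Tgfbr1 (0.0241) passed as well. No group was tested for outlying libraries, since each held 3.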

How the results depend on the processing

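Over the alternatives that keep all libraries, 364 of 376 results for single members kept their direction and side of the threshold, none was lost and 11 passed that had not. The difference of Tgfb3 between Vehicle_Tgfbr2KO and Vehicle, -0.0015 in the reported fit, was 0.0015 under median-ratio scaling. With a pseudocount of 0.1 FPKM, 1 gene passed with TGFB1 in knockout cells. Between Vehicle_Tgfbr2KO and Vehicle, 157 genes passed, against 71 with no filter on low values, 90 without the variance trend and 0 from the libraries of those groups alone. Upper-quartile scaling turned the split of calls between TGFB1 and Vehicle to 1751 higher and 2105 lower, against 2184 and 1849, and that of the interaction to 1186 higher and 1002 lower, against 1059 and 1171; every median shift of all genes stayed under 0.1.

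With a replicate block over all 4 groups, 5 members and 3658 genes passed the interaction, and 2 members and 1897 genes differed between Vehicle_Tgfbr2KO and Vehicle. The members were Tgfbr2 (adjusted p = 0.0450) and Acvrl1 (0.0185), and between TGFB1_KO and TGFB1 the block added Tgfbr1 (0.0364) and Tgfbr2 (0.0132). With the replicate block within genotype, 5 members and 3558 genes passed the interaction, against 3 and 2230 without it, and no other member's call changed beyond those given. That block was not run between genotypes, where the correlation at number 2 was near 0. A library correlated best with its own number in 2 of 3 cases there, with and without added ligand. The paired sign permutation of the shares gave p of 0.25 or more, the smallest it allows.

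Leaving out 1 library at a time, or 1 number in all groups, 553 of 600 results for single members kept direction and side, 11 were lost, 9 passed that had not and 27 changed sign, all 27 of them uncalled. Without replicate 1, all-gene counts were 1780 for TGFB1 against Vehicle, 2340 for TGFB1_KO against TGFB1, 511 for the interaction and 0 for Vehicle_Tgfbr2KO against Vehicle, where Tgfb2 was at -0.083. Without replicate 2 they were 1394, 1900, 295 and 0, with 2 members called for TGFB1 against Vehicle and 1 for the interaction, where Tgfbr2 was at 0.32. Without replicate 3, 52 genes passed for Vehicle_Tgfbr2KO against Vehicle, where Tgfb3 was at 0.19 and Eng at -0.13, and Acvrl1 was at -0.020 for TGFB1 against Vehicle.

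Without single libraries, all-gene counts ran over 1486 to 2457 for the interaction (3 to 5 members), 0 to 748 for Vehicle_Tgfbr2KO against Vehicle and 0 to 1 for TGFB1 in knockout cells. The lowest and highest log2 differences of members that changed sign were, for TGFB1 against Vehicle, -0.12 to 0.25 for Eng and -0.090 to 0.42 for Acvrl1. For TGFB1_KO against Vehicle_Tgfbr2KO they were -0.33 to 0.17 for Tgfb2, -0.27 to 0.18 for Tgfb3, -0.32 to 0.026 for Eng and -0.64 to 0.14 for Acvrl1. For Vehicle_Tgfbr2KO against Vehicle they were -0.21 to 0.20 for Tgfb2, -0.23 to 0.22 for Tgfb3 and -0.16 to 0.21 for Eng, and the interaction of Tgfbr2 ran from -0.33 to 0.18. The difference in the Tgfb2 share of ligands ran from -1.12 to 0.771 percentage points for TGFB1_KO against Vehicle_Tgfbr2KO and from -1.40 to 0.0669 for Vehicle_Tgfbr2KO against Vehicle, and that in the Tgfbr3 share of receptors from -0.186 to 4.19 for TGFB1_KO against Vehicle_Tgfbr2KO.

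The cause of these changes was not tested. The absolute depth is unknown, so no counting error is given, and 3 libraries a group limit the permutation tests.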
